A study of Mus musculus with 3 samples.

Results

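Pericytes are the cells that sit on the outer wall of capillaries and small venules, wrapped in the same basement membrane as the endothelium. Endothelial cells recruit them by releasing PDGF-B, which binds the receptor Pdgfrb on the pericyte, and Notch3 signalling keeps them in a mural (vessel wall) state. Smooth muscle cells of arteries are their closest relatives and differ mainly in a full contractile apparatus, of which the smooth muscle myosin heavy chain Myh11 is the defining part. In peripheral nerve, pericytes line the endoneurial vessels of the blood-nerve barrier.

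The pericytes described here were 82 of the 4111 cell barcodes kept in a library of injured mouse sciatic nerve, or 1.99% (exact binomial 95% interval 1.59 to 2.47). They were chosen by their counts. Each had at least 200 genes, at least 3 unique molecular identifiers (UMIs, 1 per captured transcript) summed over Rgs5, Kcnj8, Abcc9, Notch3 and Higd1b, no Myh11 UMI, and at most 1 UMI summed over the endothelial genes Pecam1, Cdh5, Kdr, Emcn and Tie1. Barcodes that the authors had placed in their table of mesenchymal cells were left out. Because these counts selected the cells, and because the other genes of the same cells go with them, levels are given as descriptions with counting intervals and no p-value.

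The study profiled single cells of adult mouse sciatic nerve by Drop-seq, in which a cell and a barcoded bead share a droplet. Collagenase and trypsin released the cells, which were cleared of myelin on beads (myelin removal beads) or FACS sorted. The injured beads library came from distal nerve of wild-type CD1 mice taken 9 days after resection. The injured FACS library came from the same segment and time in CD1 and C57BL/6 mice, and the uninjured CD1 table holds only cells that the authors predicted to be mesenchymal. Each group was 1 library, and the number of animals behind it is not given in the sources used here, so no comparison has a replicate check. With no full uninjured table, the effect of injury on pericytes was not analysed here, and a low number of pericytes cannot be told apart from poor release of them by the digestion.

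The injured beads library held 10859939 UMIs in 4300 barcodes, with a median of 1343 UMIs. The 82 pericytes held 145085 UMIs, from 278 to 18028 each with a median of 1307, and a median of 842.5 genes. The beads and FACS libraries shared 1 barcode string, no pericyte barcode occurred in either other library, and the mesenchymal table differed from the beads table in 0 counts. No doublet caller was run.

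Among the 5 genes of the rule, Rgs5, a regulator of G protein signalling and the most used pericyte marker, carried most of the selection. It had 1759 UMIs in 81 of the 82 barcodes, with a lowest value of 0, a median of 15.5 and a highest of 98. Notch3 had 76 UMIs in 41 pericytes, Abcc9 had 84 in 36, Kcnj8 had 68 in 35 and Higd1b, a mitochondrial gene used as a pericyte marker, had 49 in 26. Summed over the 5 genes, the barcodes held 3 to 111 UMIs with a median of 18.5, and 56 of 82 held at least 10. Counted by gene, 13 pericytes had a UMI of 1 of the 5 genes, 21 of 2, 31 of 3, 14 of 4 and 3 of all 5, and the 13 with a single gene had Rgs5 alone. The threshold fell in a sparse zone. Of the barcodes meeting every other criterion, 1814 had 0 UMIs of the 5 genes, 152 had 1, 21 had 2, 5 had 3 and 2 had 4. Among their 65821 UMIs the 21 barcodes just outside held 599 of Dcn, the fibroblast proteoglycan decorin, 64 of Serpine2, 45 of the macrophage gene Lyz2, 1 of Pdgfrb and 0 of Gucy1a3. The 5 just inside held 1 of Dcn, 3 of Serpine2, 12 of Lyz2, 1 of Pdgfrb and 1 of Gucy1a3 among 4469.

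**Figure D1:**
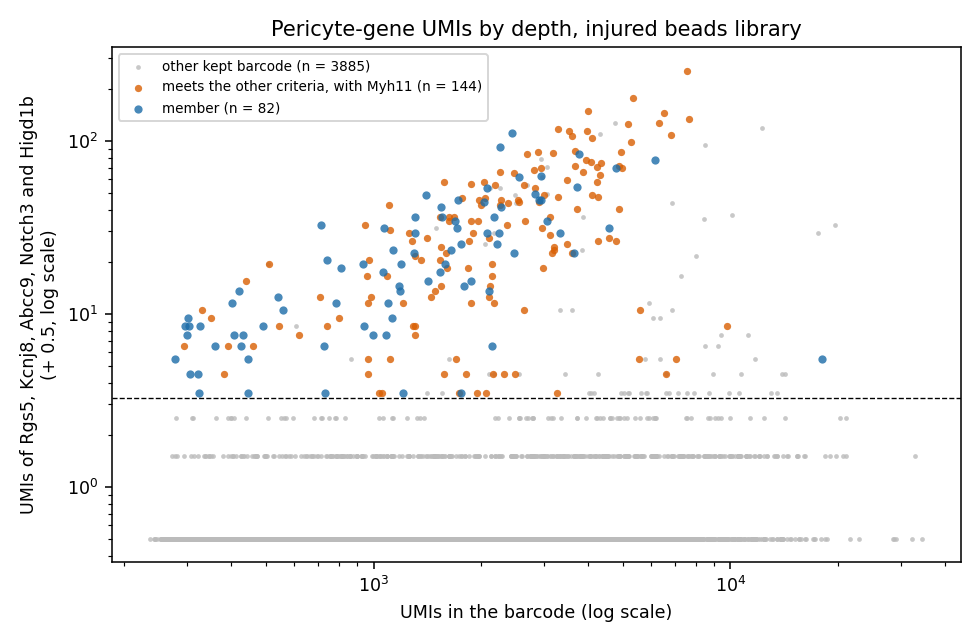
UMIs of Rgs5, Kcnj8, Abcc9, Notch3 and Higd1b (vertical axis, log scale after adding 0.5) against all UMIs of the barcode (horizontal axis, log scale), 1 point per kept barcode. Blue points are the 82 pericytes, orange points the 144 barcodes that met every criterion except having Myh11, grey points all others, and the dashed line lies just below the minimum of 3 UMIs; both coloured groups spread over the same band, and 1 blue point lies far to the right at 18028 UMIs.

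Genes outside the rule matched the pericyte label in the pool as a whole. Pdgfrb, the receptor for PDGF-B, had 78 UMIs in 43 of 82 pericytes, a highest value of 6 and a median of 1. Its summed level was 538 CPM, counts scaled to a pool total of 1000000 (exact Poisson 95% interval 425 to 671). It was 47.6 in the 4029 other kept barcodes and 2.65 in 429 endothelial barcodes. The latter lay outside the mesenchymal table, with at least 3 UMIs of the 5 endothelial genes and at most 1 of the rule's 5 pericyte genes. That limit can lower genes carried with those 5 in the endothelial pool. Transcripts of other cell types were also present. A UMI of the mesenchymal marker list was found in 56 of the 82 pericytes, and 3 or more in 18. For the endothelial list 7 pericytes had 3 or more, and for the macrophage list 4. Of 12 endothelial marker genes that the rule did not use, 10 had a UMI, and Cldn5 and Tek were at 0. The 12 summed to 517 CPM in the pericytes, 2346 CPM in all other barcodes and 9875 CPM in endothelial barcodes. Macrophage markers had 55 UMIs, of which 18 lay in 1 barcode, and the Schwann cell list had 3 UMIs, the B cell list 4 and the T and NK cell list 1. Named results were recomputed without pericytes holding 3 or more UMIs of another cell type's marker list, as given in the section on processing. That left 58 of the 82 barcodes. The part of fewer such UMIs was not tested.

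The deepest pericyte barcode went against the label. It held 18028 UMIs and 4794 genes, next to 6164 UMIs in the second deepest, and made up 12.4% of all pericyte UMIs. Its 5 UMIs of the rule's genes were 1 of Rgs5, 3 of Kcnj8 and 1 of Abcc9, and it had none of Pdgfrb or Acta2. It carried 382 of the 569 UMIs of the 12 mesenchymal markers found in the 82 barcodes, or 67.1%, and the next highest barcode carried 45. It held 88 of the 89 UMIs of Sfrp2, a secreted Wnt antagonist of fibroblasts, and 126 of the 164 of Dcn. With it the mesenchymal list stood at 3922 CPM in the pericytes, without it at 1472, and in the authors' 1289 mesenchymal cells at 23917. Without it 10 mesenchymal markers were compared with all other barcodes, and 9 were lower and 1, Dlk1, was higher. Values are given for all 82 barcodes, and for the other 81 beside the named results and list counts whose call differs without it.

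The rule could not be applied in full elsewhere, since it leaves out mesenchymal cells by a table of the injured beads library. In the FACS library 28 of 1914 kept barcodes met its counts (1.46%, 0.974 to 2.11), 19 of them with only 3 or 4 UMIs of the 5 genes and 4 with 10 or more. Their mesenchymal markers summed to 28248 CPM, and 21 of the 28 had at least 10 Dcn UMIs. Of the 880 uninjured barcodes, all predicted mesenchymal, 7 met them, with mesenchymal markers at 56058 CPM. Of the authors' injured mesenchymal cells 33 met the rule otherwise, with the list at 24551 CPM. These barcodes were not compared further.

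In the comparison with the 4029 other kept barcodes of the same library, a gene was called higher or lower when it reached 50 CPM in either pool, differed at least 2-fold and had an exact binomial 95% interval of the ratio that left out 1. By this size rule 520 of 4810 genes were higher in pericytes (10.8%) and 555 were lower (11.5%), shares that the choice of cells fixes in part. Without the deepest barcode the counts were 574 (11.8%) and 601 (12.3%) of 4877. Scaled by edgeR's TMM factors, which move all log2 ratios by -0.13, they were 429 and 639 of 4810, and calls close to 2-fold below, those of Cxcl1, Il6 and Pdgfa, fall short of it. Intervals cover counting error of these barcodes only.

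Of 29 other pericyte and mural genes listed, 20 reached the level for comparison, and 18 of these were higher in pericytes than in the other barcodes (19 without the deepest barcode) and 0 lower. Their median log2 ratio was 2.27, against 0.08 over all genes compared. Pdgfrb was higher by 3.50 on the log2 scale (interval 3.14 to 3.85). Vtn, which encodes vitronectin, a plasma and matrix protein also made by brain pericytes, had 52 UMIs in 27 pericytes, 358 CPM against 45.0, a log2 ratio of 2.99. Des, the intermediate filament desmin, was higher by 3.63, and the Notch target Heyl by 3.22. A pair of mitochondrial genes showed a paralog contrast. Ndufa4l2, an inducible relative of the respiratory chain gene Ndufa4, had 365 CPM in pericytes and 30.3 in the others, a log2 ratio of 3.59, while Ndufa4 itself stood at -2.04. Cox4i2, the alternative isoform of cytochrome oxidase subunit 4, had 152 CPM against 8.55, a log2 ratio of 4.15, while the common isoform Cox4i1 stood at 0.08. Neither Ndufa4l2 nor Cox4i2 was called against the 243 barcodes with Myh11 described below. A UMI of Ndufa4l2 was found in 34.1% of pericytes and 49.0% of those barcodes. For Cox4i2 the shares were 23.2% and 21.4%, at median depths of 1307 and 2145 UMIs. Cspg4, the proteoglycan NG2 often used to stain pericytes, had only 4 UMIs in 3 barcodes, 2 of them in the deepest one. Atp13a5 was at 0, in a pool where 3 UMIs make 20.7 CPM.

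The pericytes carried the subunit genes of a potassium channel and of a nitric oxide receptor, both proteins of vessel relaxation. Kcnj8 and Abcc9 encode the pore and the sulfonylurea receptor of the vascular ATP-sensitive potassium channel, and 52 of 82 pericytes had a UMI of at least 1 of them and 19 of both. Gucy1a3 and Gucy1b3 encode the alpha and beta subunits of soluble guanylate cyclase, the receptor for nitric oxide. The rule did not use either. Gucy1a3 had 129 UMIs in 50 pericytes, with a median of 1 and a highest value of 10, and Gucy1b3 had 64 in 32, with a highest value of 6. A UMI of either subunit was found in 58 pericytes and of both in 24. Gucy1a3 stood at 889 CPM in pericytes (742 to 1056), 49.99 in the other barcodes, 17.9 in mesenchymal cells and 2.12 in endothelial barcodes, and its log2 ratio to the others was 4.15 (3.86 to 4.43). Gucy1b3 stood at 441, 28.0, 6.32 and 1.06 CPM in the same order, a log2 ratio of 3.98. In a sample of 800 UMIs drawn from each barcode deep enough, Gucy1a3 was seen in 56.1% of 57 pericytes and in 0.498% of 201 barcodes with at least 2 UMIs of B cell markers, cells that should lack the gene. Without that sampling the shares were 61.0% of 82 and 0.254% of 393, at median depths of 1307 and 826 UMIs.

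The genes of each pair are neighbours on 1 strand. In GRCm38 a gap of 16247 bases separates Kcnj8 from Abcc9 on chromosome 6, and Gucy1b1 and Gucy1a1, the current symbols of Gucy1b3 and Gucy1a3, lie 17737 bases apart on chromosome 3, all on the minus strand. The promoter windows of the 4 genes are shown because each pair encodes the subunits of 1 protein, although most pericytes had no UMI of both genes of a pair. Each runs from 250 bases before to 50 after a gene start in RefSeq (GRCm38.p6), 5′ to 3′ on the minus strand. Capitals mark TGGGAA, the core letters bound by the Notch effector Rbpj, searched on both strands together with the CArG box of serum response factor.
Kcnj8, chr6:142571565-142571864: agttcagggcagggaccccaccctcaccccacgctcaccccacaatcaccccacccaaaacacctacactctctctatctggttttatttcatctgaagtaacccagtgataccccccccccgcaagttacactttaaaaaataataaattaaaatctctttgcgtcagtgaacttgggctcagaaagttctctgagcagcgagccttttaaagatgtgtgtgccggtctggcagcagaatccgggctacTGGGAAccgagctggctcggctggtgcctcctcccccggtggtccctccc
Abcc9, chr6:142702225-142702524: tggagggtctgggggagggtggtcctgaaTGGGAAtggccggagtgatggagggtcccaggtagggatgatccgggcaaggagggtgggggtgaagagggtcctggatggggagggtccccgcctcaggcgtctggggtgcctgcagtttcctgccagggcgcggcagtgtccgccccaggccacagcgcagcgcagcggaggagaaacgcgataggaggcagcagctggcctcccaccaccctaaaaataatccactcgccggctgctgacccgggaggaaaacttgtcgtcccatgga
Gucy1a1, chr3:82145601-82145900: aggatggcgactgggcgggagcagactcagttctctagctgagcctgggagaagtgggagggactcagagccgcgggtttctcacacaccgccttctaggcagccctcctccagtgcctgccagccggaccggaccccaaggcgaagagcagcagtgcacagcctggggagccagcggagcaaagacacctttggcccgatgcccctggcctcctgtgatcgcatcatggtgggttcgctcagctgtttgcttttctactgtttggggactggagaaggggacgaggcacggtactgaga
Gucy1b1, chr3:82074662-82074961: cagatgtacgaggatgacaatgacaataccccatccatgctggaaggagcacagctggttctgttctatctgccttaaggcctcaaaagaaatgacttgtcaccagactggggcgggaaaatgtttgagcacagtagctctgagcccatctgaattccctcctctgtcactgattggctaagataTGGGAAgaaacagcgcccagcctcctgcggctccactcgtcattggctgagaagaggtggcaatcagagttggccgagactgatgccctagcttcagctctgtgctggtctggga

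TGGGAA occurred at 1 position in the Kcnj8, Abcc9 and Gucy1b1 windows and at none in the Gucy1a1 window, and none of the 4 held a CArG box. For Gucy1a1 the table lists 2 windows and 1 is shown. Over 32851 promoter windows of this length, 25.6% held TGGGAA and 1.63% a CArG box, so a match is common and describes only the letters.

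Other regulators of vessel tone were also higher. Of 32 listed receptors, channels and effectors, 17 were compared, and 13 were higher in pericytes (14 of 18 without the deepest barcode) and 1, Rgs2, lower, and the median log2 ratio was 2.75 against 0.08 over all genes. Ednra, the endothelin receptor of vascular muscle, had 33 UMIs in 25 pericytes and 228 CPM against 46.2 in the others. Ednrb, the second endothelin receptor, had 61 UMIs in only 16 pericytes, up to 14 in 1, and 420 CPM against 62.5. Agtr1a, the angiotensin II receptor, had 19 UMIs in 16 pericytes and 131 CPM against 18.2, a log2 ratio of 2.84 (2.08 to 3.53). Kcnk3, a background potassium channel, was higher by 3.78, and Rgs16, a G protein regulator, by 2.80. Agtr1a and Ednrb were thus each seen in 16 pericytes, with at most 3 UMIs of Agtr1a and 14 of Ednrb in a barcode.

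**Figure D2:**
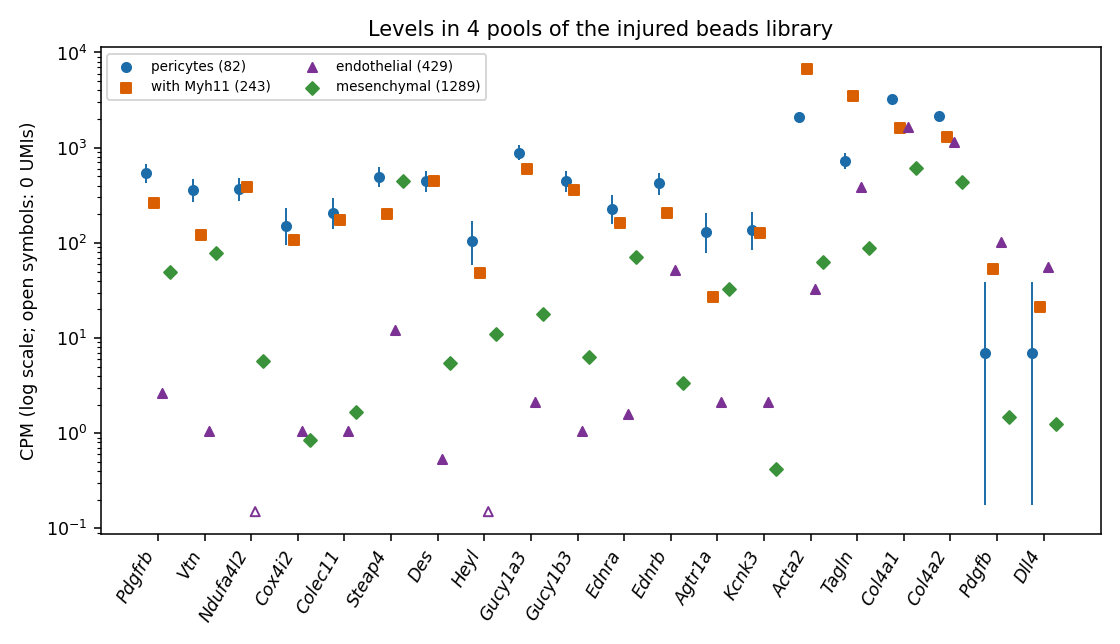
Summed level of 20 genes (CPM, log scale) in 4 pools of barcodes from the injured beads library, with the number of barcodes in the legend. Bars on the pericyte points are exact Poisson 95% intervals, the other points have none drawn, and open symbols stand for 0 UMIs; Pdgfrb, Gucy1a3 and Gucy1b3 stand at 538, 889 and 441 CPM in pericytes and at 2.65, 2.12 and 1.06 CPM in endothelial barcodes, while Acta2 and Tagln are highest in barcodes with Myh11.

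The genes with the highest ratios to the other barcodes, apart from those of the rule and from markers of other cells, were few UMIs deep. Tusc5, which encodes a regulator of trafficking of the insulin-responsive glucose transporter GLUT4, had 16 UMIs in 14 pericytes, 110 CPM against 3.57, a log2 ratio of 4.95 (4.01 to 5.83). Slc2a4, which encodes GLUT4 itself, had 10 UMIs in 9 pericytes and a log2 ratio of 4.47 (3.29 to 5.53). Both were at 0 in endothelial barcodes. Mir143hg, the host transcript of the smooth muscle microRNAs miR-143 and miR-145, had 18 UMIs in 14 pericytes and a log2 ratio of 4.32. Ifitm1, an interferon-induced membrane gene, was more abundant, with 104 UMIs in 33 pericytes, 717 CPM against 49.3 and a log2 ratio of 3.86, and it was called among the 12 compared of 16 listed for MHC class I and interferon, joined by Ifitm3, at 1.08, when the deepest barcode was left out. The adhesion gene Ntm stood at 4.02, Pawr at 3.99, the muscle LIM gene Fhl5 at 3.94 and the collectin Colec11 at 3.90, with Ephx3 at 4.09 and Tmem136 at 3.80. Colec11 was not called against the 243 barcodes with Myh11 described below, with a UMI in 18.3% of pericytes and 19.8% of those barcodes. Ifitm1 was called higher against the 243. Without the deepest barcode it was not called against the 144 of them that met every other criterion. H2-M9 at 5.09, Serpina1d at 4.61 and Serpina1b at 3.93 belong to families of near-identical copies, so their counts are uncertain.

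The 8 named lower genes had 1 to 3 UMIs each in the pericytes. Il1b, the inflammatory cytokine of macrophages and neutrophils, had 1 UMI in the pericytes, 6.89 CPM against 389. H2-Eb1, an MHC class II chain, also had 1 UMI, against 317 CPM, and the leukocyte phosphatase Ptprc 1 UMI against 188 CPM. Ctss, a protease of antigen-presenting cells, had 3 UMIs, against 709 CPM. The fibroblast genes Sfrp4 and Thbs4 had 2 and 3 UMIs, against 445 and 546 CPM, and S100a16 and Slpi had 1 UMI each.

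Collagen IV stood out among basement membrane genes. Col4a1, the alpha 1 chain, had 475 UMIs in 66 pericytes, with a median of 3 and a highest value of 32, and stood at 3274 CPM (2986 to 3582) against 735 in the others, 1642 in endothelial barcodes and 610 in mesenchymal cells. Col4a2, its partner chain, stood at 2130 CPM against 541, and Col18a1, which holds the endostatin fragment, at 1068 against 450. These 3 were higher among the 13 compared of 14 listed, and Hspg2, the heparan sulfate proteoglycan perlecan, was lower at 110 CPM against 264. In the deepest barcode lay 8 of the 16 Hspg2 UMIs and 1 of the 475 of Col4a1.

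Of the listed ligands and receptors between pericytes and endothelium, several lay on opposite sides. Pdgfb had 1 UMI in the pericytes, 6.89 CPM (0.175 to 38.4), and 101 CPM in endothelial barcodes, while Pdgfrb showed the reverse, with 538 and 2.65 CPM. The Notch ligand Dll4 likewise had 1 UMI in pericytes and 55.6 CPM in endothelial barcodes. Notch3 is left out of this contrast, since the choice of cells fixed its level in both pools. Among 17 listed ligands, 8 were compared with all other barcodes: the angiopoietins Angpt1 and Angpt2, which act on the endothelial receptor Tek, and Pdgfa were higher, at log2 ratios of 1.34, 2.47 and 1.04, and Hbegf was lower at -1.84. Without the deepest barcode the Notch ligand Jag1, at 1.14, was also called. Of 17 listed receptors 13 were compared, and Pdgfrb, the sphingosine phosphate receptor S1pr3 at 1.64 and the N-cadherin gene Cdh2 at 3.49 were higher and 6 were lower, among them Tek and S1pr1 at 0 UMIs. Without the deepest barcode 6 were again lower, with Tgfbr2 in place of Eng. Of 6 listed Notch targets 2 were compared, Hes1 at 1.75 and Heyl at 3.22, and both were higher.

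Signalling to leukocytes was mixed. Of 25 listed chemokines, cytokines and adhesion genes, 16 were compared, 3 were higher and 7 lower. Cxcl1, a neutrophil chemokine, had 162 UMIs in 27 pericytes, up to 28 in 1, and a log2 ratio of 1.0 (0.77 to 1.23). Il6 had 27 UMIs in 9 pericytes and stood at 1.01, and Il34, a ligand of the macrophage receptor Csf1r, had 13 in 12 and stood at 2.06. Ccl2, the monocyte chemokine, had 50 UMIs in 19 pericytes, 345 CPM against 673 in the others and 1320 in mesenchymal cells, so its level was lower here than in the fibroblasts of the same nerve. Of 20 immediate early and dissociation stress genes, all compared, 0 were higher and 2, Ier3 and Klf2, lower (3 without the deepest barcode, with Klf4), a share near that of all genes. Of 18 glycolysis and hypoxia genes 11 were compared, with 0 higher and 3 lower, Slc2a1, Ndrg1 and Adm, of which Adm was not called without the deepest barcode.

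Against the authors' 1289 mesenchymal cells, 753 of 4623 genes were higher in pericytes (16.3%) and 498 lower (10.8%). Scaled by edgeR's TMM factors, which move all log2 ratios by -0.31, the counts were 483 and 722, so the balance of higher to lower genes turned with the scaling. The named genes lay far beyond that shift. Tusc5 stood at 9.03 (6.35 to 14.42), Slc2a4 at 8.35 (5.54 to 13.79), Kcnk3 at 8.35 (6.31 to 11.50) and H2-M9 at 8.35 with the same interval. The olfactory receptor gene Olfr558 stood at 8.15 (6.44 to 10.52), Fhl5 at 7.73 (5.59 to 10.92), Cox4i2 at 7.49 (5.93 to 9.49) and Ednrb at 6.96 (6.15 to 7.86). The wide intervals come with counts of a few UMIs in the mesenchymal cells. Olfr558 had 26 UMIs in 15 pericytes and 179 CPM against 0.632. Among the lower genes, Apod, the lipocalin apolipoprotein D, had 171 UMIs in 61 pericytes, 1179 CPM against 48376, a log2 ratio of -5.36. The other 7 rested on 1 to 3 UMIs in the pericytes: Sfrp4 at -6.10 (-9.15 to -4.25), Thbs4 at -5.80 (-8.08 to -4.26), Sfrp5 at -5.55 (-10.85 to -3.07), Kng2 at -5.32 (-10.63 to -2.84), S100a16 at -5.24 (-10.55 to -2.76), Epyc at -5.12 (-8.17 to -3.27) and Abca8a at -5.11 (-8.16 to -3.26).

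Interstitial matrix genes as a group were lower in the pericytes than in the mesenchymal cells. The choice of cells can fix this in part, since the rule left out every barcode of the mesenchymal table. Of 24 listed fibrillar collagen and matrix genes 23 were compared with mesenchymal cells, 0 were higher and 12 lower, and their median log2 ratio was -1.0 against 0.24 over all genes. Without the deepest barcode 14 were lower, with a median of -1.75, and over all genes 810 of 4684 were then higher (17.3%) and 545 lower (11.6%). Col1a1, the type I collagen chain, stood at 2998 CPM in the 82 barcodes and 1228 in the 81, against 8607 in mesenchymal cells. Col3a1, the type III chain, was seen in 78 of 82 pericytes, at 8175 CPM in all and 6407 in the 81, against 16399. Of 20 cell division genes 12 were compared, and 9 were called higher than in mesenchymal cells with all 82 barcodes, but of the 6 compared in the 81 none was called. Top2a, the mitotic topoisomerase, had 35 UMIs, of which 22 lay in the deepest barcode.

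The barcodes with Myh11 outside the mesenchymal table numbered 243, with a median of 2145 UMIs. Against them 400 of 4749 genes were higher in pericytes (8.42%) and 396 lower (8.34%), and by edgeR's TMM factors, a shift of -0.12, 311 and 494. The 9 genes with the highest ratios were Ociad2 at 4.29, Angptl1 at 4.20, Nsg1 at 4.03, Clmp at 3.75, Penk at 3.43, Sfrp1 at 3.36, Ptn at 3.32, Nostrin at 3.29 and Igf1 at 3.28. Most of these UMIs lay in the deepest barcode: all 15 of Angptl1, all 11 of Clmp and of Penk, 20 of 21 of Sfrp1, 59 of 63 of the growth factor Ptn and 125 of 143 of Igf1, insulin-like growth factor 1. Without it only Nostrin of these 9, a gene that regulates nitric oxide synthase traffic, was still called, at 3.49, on 10 UMIs in 9 pericytes. In the 81 barcodes Ptn stood at -0.47 and Igf1 at 0.49, and Sfrp1 had 1 UMI left.

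**Figure D3:**
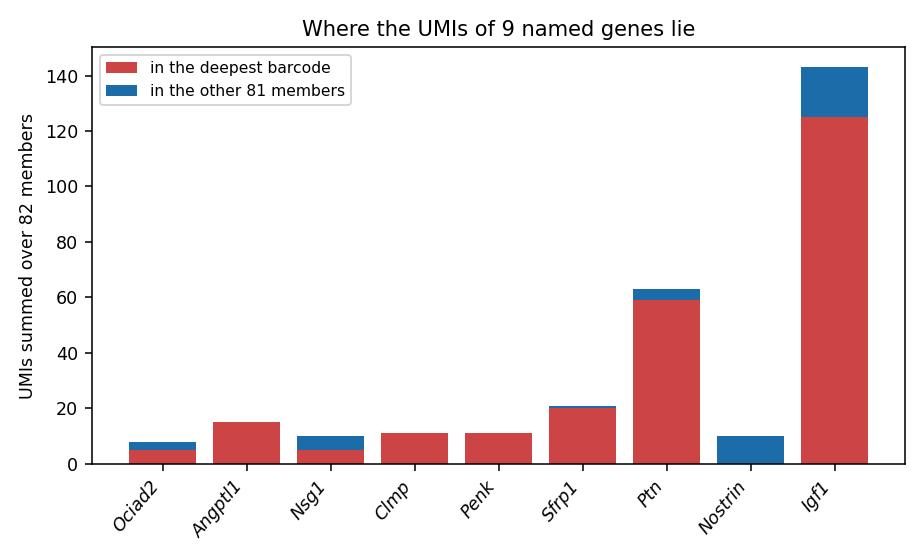
UMIs summed over the 82 pericytes (vertical axis) for the 9 genes with the highest ratio to barcodes with Myh11, split into the deepest barcode (red) and the other 81 (blue). Angptl1, Clmp and Penk are red throughout, and Nostrin is blue throughout.

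The barcodes with Myh11 were of more than 1 kind, and the genes lower in pericytes differed between them. Of the 243, 144 met every other criterion of the rule and 99 did not. Ighg2b, an immunoglobulin heavy chain gene, had 0 UMIs in the pericytes, 888 CPM in the 243 and 2.60 CPM in the 144, and Ighm had 0, 621 and 5.20 CPM. Igj, the joining chain, had 1 UMI in the pericytes, 197 CPM in the 243 and 0 in the 144. Slpi, a secreted protease inhibitor, had 1 UMI, 1172 CPM in the 243 and 44.2 in the 144. Muscle genes stood at similar levels in both pools: the intermediate filament gene Synm had 1 UMI in pericytes and 152 CPM in the 243 and 177 in the 144, and Myom1, a sarcomere gene, 139 and 153. Filip1 stood at 157 and 159 CPM, and Cdkn1a, whose single UMI lay in the deepest barcode, at 198 and 185. Entpd1 and Mgll, at 184 and 177 CPM in the 243, were highest in endothelial barcodes, at 579 and 482 CPM.

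The closest comparison was therefore between the 81 pericytes and these 144 mural barcodes with Myh11, a choice made after the data were seen. Here 282 of 4595 genes were higher in pericytes (6.14%) and 265 lower (5.77%). Rgs5 did not separate them, at 13836 and 13796 CPM, a log2 ratio of 0.00 (-0.07 to 0.08), and neither did Notch3 at -0.01 (-0.40 to 0.37). Kcnj8 stood at 512 CPM against 138, a log2 ratio of 1.89 (1.35 to 2.44), and Abcc9 at 653 against 234, a log2 ratio of 1.48 (1.03 to 1.93), so of the rule's genes the channel pair was the called one. The cyclase pair was not called: Gucy1a3 stood at 0.44 (0.13 to 0.75) and Gucy1b3 at 0.07 (-0.36 to 0.49). Of the 29 other pericyte and mural genes 22 were compared, 4 were higher and 2 lower. The 4 were Vtn at 1.21 (0.66 to 1.75), the metalloreductase gene Steap4 at 1.16 (0.69 to 1.62), Art3 at 1.21 (0.05 to 2.34) and P2ry14, a receptor for UDP-sugars, at 2.38 (1.37 to 3.44), and the 2 were Cspg4, on 2 UMIs, at -2.83 (-5.92 to -0.89) and Rgs4 at -1.16 (-1.78 to -0.58). Pdgfrb was higher at 0.68 (0.27 to 1.09), short of 2-fold.

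Contractile genes ran the other way, in part by construction, since Myh11 chose both pools. Of 30 listed, 28 were compared, 0 were higher in pericytes and 22 lower, and the median log2 ratio was -1.58 against 0.07 over all genes. Acta2, smooth muscle actin, had 305 UMIs in 53 of the 82 pericytes, with a lowest value of 0, a median of 1.5 and a highest of 25. It stood at 2400 CPM in the 81 against 9088, a log2 ratio of -1.92 (-2.09 to -1.75), but above the 493 CPM of all other barcodes. Tagln, the actin-binding protein transgelin, stood at 826 against 4461 CPM, and Cnn1, calponin, had 2 UMIs, 15.7 against 257 CPM. Mylk, myosin light chain kinase, stood at 1283 against 3093. Desmin did not differ by the size rule, at 512 and 608 CPM. At 800 UMIs per barcode, over the whole pools of 82 and 243 rather than the 81 and 144, Acta2 was seen in 63.2% of 57 pericytes (49.3 to 75.6) and 78.6% of 210 barcodes with Myh11 (72.4 to 83.9), and Tagln in 36.8% and 69.5%. Unthinned, the shares were 64.6% and 83.1% for Acta2 and 45.1% and 78.2% for Tagln.

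Genes outside the lists widened the contrast. Serpine2, a secreted inhibitor of thrombin and plasminogen activators, and Sept4, a septin, were singled out after their values were seen. Serpine2 had 895 UMIs in 68 of the 82 pericytes, with a median of 4 and a highest value of 84. It stood at 6965 CPM in the 81 against 2633, a log2 ratio of 1.40 (1.27 to 1.53), and Sept4 at 1047 against 460, a log2 ratio of 1.19 (0.85 to 1.52). At 800 UMIs, over the pools of 82 and 243, Serpine2 was seen in 89.5% of pericytes and 59.0% of barcodes with Myh11, and in 3.48% of those with B cell markers. The angiotensin receptor Agtr1a stood at 2.52 (1.35 to 3.79) and Rgs16 at 1.07, the called genes among the 19 tone genes compared, with P2rx1, a purine receptor at 0 UMIs in pericytes, and the channel Trpc6 lower. Cdh2 stood at 1.53, and Ccl2 at 1.13 and Vcam1, a leukocyte adhesion gene, at 2.77 (0.93 to 4.92) were the chemokine and adhesion genes called higher. Igfbp3 stood at 3.53, with 20 of its 47 UMIs in 1 pericyte. Col4a1 was higher by 0.72 and not called, and of the basement membrane list Lamb1 was called higher and Lama5 and Lamb2 lower.

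**Figure D4:**
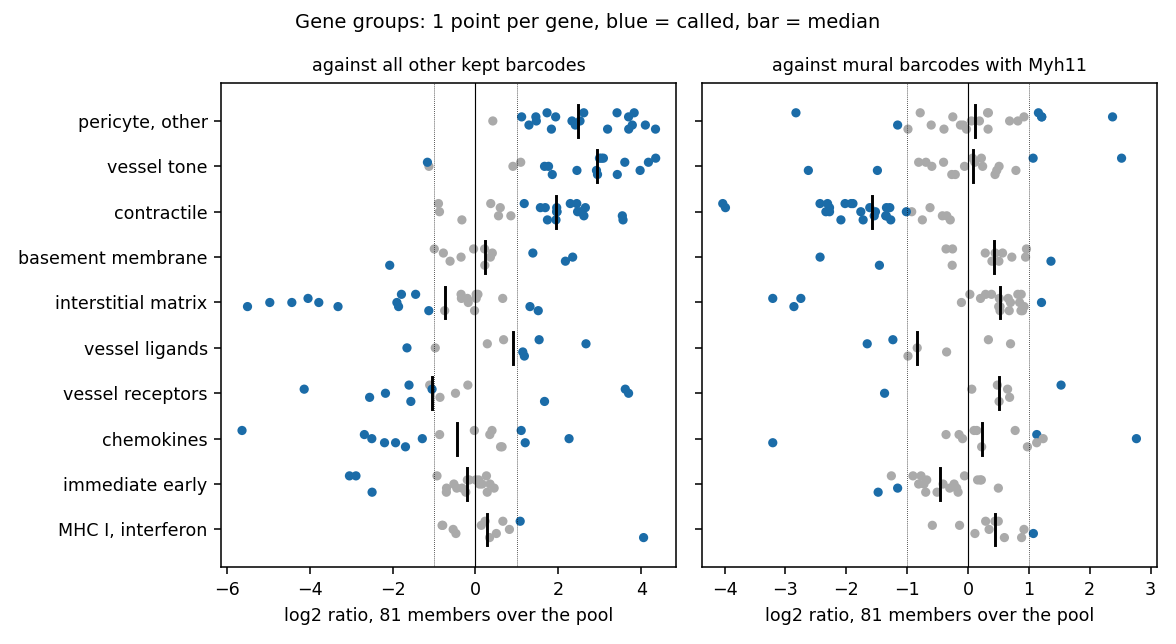
Log2 ratio of the 81 pericytes without the deepest barcode to all other kept barcodes (left) and to the 144 mural barcodes with Myh11 (right), 1 point per gene of 10 listed groups. Blue points met the size rule, black bars are medians and dotted lines mark 2-fold; the contractile group lies to the right on the left panel and to the left on the right panel.

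The matrix group shows how far 1 barcode reached. With all 82 barcodes 18 of 23 interstitial matrix genes were called higher than in the 243 barcodes with Myh11, and without the deepest 8 of 22 were, when 339 of 4742 genes in all were higher (7.15%) and 377 lower (7.95%). Against the 144 only Col5a2, a minor fibrillar collagen, was higher, and the elastic fibre gene Eln, Tnc and the crosslinking enzyme gene Lox were lower. Among 16 listed ligands for neurons and Schwann cells 5 were compared with the 243, and Ptn, Mdk, Igf1 and Igf2 were higher with all 82, against Mdk alone without the deepest. Against the 144, without the deepest, 4 were compared, and Mdk and Igf1 were called higher. Mdk had 31 UMIs in 10 of the 82 pericytes, 16 of them in 1. Against all other kept barcodes, without the deepest, 5 were compared, with 0 higher and 3, Ptn, Mdk and Igf1, lower. Against the mesenchymal cells all 5 compared were then lower.

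Summed levels of several genes changed stepwise with Myh11 UMIs across the pericytes and the mural barcodes with Myh11. Such sums do not show whether single barcodes were intermediate, which was not tested. The barcodes meeting the other criteria were divided by Myh11 UMIs into 0 (81 barcodes), 1 (27), 2 to 4 (41) and 5 or more (76), with median depths of 1306, 1577, 1764 and 2872.5 UMIs. A count of 0 is easier to meet in a shallow barcode, and the part of depth in this order was not tested. Acta2 stood at 2400, 4027, 7199 and 10685 CPM in these classes, and Tagln at 826, 1260, 3343 and 5445. Kcnj8 ran the other way at 512, 289, 143 and 107 CPM, with intervals of 395 to 652 in the first class and 70.5 to 156 in the last. Abcc9 followed it at 653, 454, 310 and 166 CPM, and Serpine2 at 6965, 5391, 3033 and 1972. Cdh2 stood at 323, 186, 119 and 95.05 CPM, and Ifitm1 at 819, 805, 645 and 309. Neighbouring classes overlapped in their intervals at every step for Kcnj8, Abcc9 and Cdh2. Barcodes with 1 Myh11 UMI lay between the pericytes and the rest for Acta2 and Serpine2. For the channel pair their level was also between, but on 14 and 22 UMIs and with intervals overlapping both sides. Rgs5 had no such order, at 13836, 14581, 17957 and 12265 CPM, nor had Notch3 at 598, 640, 525 and 618. Gucy1a3, at 1015, 805, 585 and 788 CPM, and Des, at 512, 640, 597 and 606, also lacked one. Steap4 stood at 551, 516, 442 and 131 CPM, with its main step at the last class.

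**Figure D5:**
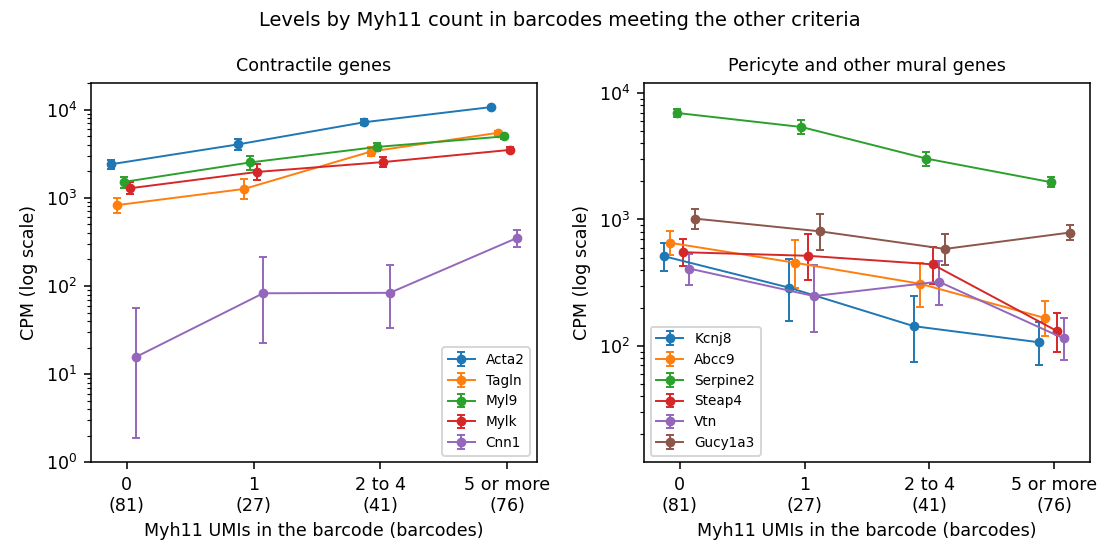
Summed level (CPM, log scale, with exact Poisson 95% intervals) of contractile genes (left) and pericyte and other mural genes (right) in barcodes that met the rule's other criteria, by Myh11 UMIs, with the number of barcodes in brackets. Acta2, Tagln, Myl9, Mylk and Cnn1 are highest at 5 or more Myh11 UMIs, and Kcnj8, Abcc9 and Serpine2 are highest at 0.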

How the data were processed

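The authors deposited whole-number UMI counts per gene and barcode for the 3 libraries, with no normalization in the values, and a table of mesenchymal cells for the injured beads library. Per the submitters' processing notes, reads were placed on mm10. No source used here names the aligner, the counting tool, the FACS gate, the rule for mesenchymal cells or the sequencing dates. Members, gene lists and comparisons were chosen with earlier results of these data known.

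Barcodes with at least 200 genes were kept. Counts were summed per pool and scaled to CPM, without a pseudocount. A pool at 0 UMIs was taken at 3 counts over the pool, so that its ratio is a bound, and no ratio was given where both pools had 3 counts or fewer. Ratios have exact conditional binomial 95% intervals, CPM exact Poisson and shares Clopper-Pearson intervals. UMIs of 1 barcode are not independent of each other, so the intervals cover counting error only. No p-value was computed, because each group is 1 library. Endothelial barcodes are those with at least 3 UMIs of the rule's 5 endothelial genes and at most 1 of its 5 pericyte genes. They lie outside the pericytes and the mesenchymal table. Genes were named by the highest and lowest ratios among called genes (16 and 8 against other barcodes, 10 and 10 against barcodes with Myh11, 8 and 8 against mesenchymal cells), leaving out ribosomal, mitochondrial, predicted and haemoglobin genes, the rule's own genes and any marker of another cell type. List members were named as examples. A gene named by this rule against barcodes with Myh11 is not reported here.

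Computation used Python 3.11.15 with numpy 2.4.6, scipy 1.17.1, pandas 2.3.3 and matplotlib 3.10.9, while DESeq2 1.42.0 and edgeR 4.0.16 in R 4.3.3 gave other scaling factors only. The ratio script was tested on simulated data. Gene positions are from GENCODE vM21 and promoters from RefSeq, matched by symbol for the genes shown. Alternatives changed the scaling, the weight of barcodes, the filters, the thresholds of the rule and the depth.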

Additional observations from a re-analysis of the deposited data

How the results depend on the processing

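No paired analysis was possible because each group is 1 library with no replicate number, and there was no replicate to leave out. For the same reason every value rests on 82 barcodes of 1 library, and a gene at 0 UMIs is limited to below 20.7 CPM. For 60 named results, 707 values were computed under other settings, of which 608 stayed within their interval, 93 moved beyond it and 6 turned in direction. Results left with no ratio under a setting are not in these counts. Without the deepest barcode 56 of the 60 had a ratio, and Ociad2, Angptl1, Clmp and Penk against barcodes with Myh11 had none. Of the 60, 0 moved with 5 or more pericyte UMIs (75 barcodes), with 0 endothelial UMIs (68), with 500 or more genes (62) and without the CPM filter. The CPM filter decides only which genes are compared, so it could not move a ratio. The deepest barcode met each of the other settings, so they could not show its part. With 2 or more pericyte UMIs (103 barcodes) 19 of 60 moved, at 800 UMIs per barcode 27 of 50 and at equal weight per barcode 14 of 60. With pericytes carrying other cells' markers left out (58 barcodes) 16 of 54 moved.

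Against barcodes with Myh11, Penk stood at -0.85 with each barcode given the same weight. Sfrp1 stood at -0.055 with pericytes carrying 3 or more UMIs of another cell's markers left out, at -0.84 without the deepest barcode and at -0.72 when the Myh11 barcodes also met the other criteria. Ptn stood at -1.69 and -0.47 under the first and second of these settings. The settings without the deepest barcode were added after the data were seen. They leave out the barcode that holds most UMIs of Sfrp1 and Ptn, and so does the setting by other cells' markers. All 11 Penk UMIs lay in that barcode, and the cause of the turn of Penk was not tested.

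With each barcode given the same weight, where a call uses fold alone, the counts of higher and lower genes were 979 and 960 against other barcodes, 778 and 655 against barcodes with Myh11 and 1187 and 787 against mesenchymal cells. At 800 UMIs per barcode, which leaves fewer UMIs, 233 genes were lower than in other barcodes, 205 were higher and 121 lower than in barcodes with Myh11, and 264 were lower than in mesenchymal cells. Leaving out pericytes with other cells' markers gave 227 genes lower than in barcodes with Myh11. Against mesenchymal cells 483 genes were higher by TMM factors and 501 by DESeq2 size factors, which shift log2 ratios by -0.31 and -0.27. The other counts were within 1.5 times the reported ones.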

Other observations

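A pair of receptors for sympathetic transmitters, singled out after their values were seen, was also found in the pericytes. Adra2a, an adrenergic receptor, had 39 UMIs in 23 of 82 pericytes and stood at 269 CPM (191 to 367), against 23.4 in the other barcodes, 29.5 in mesenchymal cells and 1.59 in endothelial barcodes. Npy1r, a receptor for neuropeptide Y, had 32 UMIs in 19 pericytes and stood at 221 CPM (151 to 311), against 24.0, 8.22 and 0.530 CPM in the same order. In the 81 pericytes against the 144 mural barcodes with Myh11, Adra2a was higher by 1.27 on the log2 scale (0.62 to 1.91), while Npy1r stood at -0.51 (-1.11 to 0.05).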
